A study of Rattus norvegicus with 24 samples.

Results

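Genes of the motile cilium were followed in lung RNA of 24 rats, chosen by name from the counted genes. The choice took every gene whose symbol starts with Dnah, Dnai, Dnal, Cfap, Tekt, Rsph, Drc, Spag or Ift followed by a digit, which gave 60 lines, and added Foxj1, Mcidas, Gmnc, Rfx2, Rfx3, Ccdc39 and Ccdc40 by name. That made 67 of 30043 genes, with 65 distinct gene identifiers, because Dnah5 and Dnah5-2 share the identifier 294854 and Dnah7 and Dnah7-2 share 252893. For these paired lines the way reads were split between them is uncertain. Of the 67, 56 had enough counts to be tested, out of 13322 tested genes in all.

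Male Fischer 344 rats in 4 groups of 6 were compared, all bought at 3 months of age and kept in whole-body inhalation chambers for 29 weeks. The combined group breathed Min-U-Sil5 crystalline silica (a fine quartz dust) at 15 mg/m3 for 6 hours a day on 5 days of week 3, and cigarette smoke on Tuesdays and Fridays for 3 hours a day in the other weeks, at 45 mg/m3 in the first week and 80 mg/m3 afterwards. The silica group breathed the same silica in week 3 and air in all other weeks. The smoke group breathed smoke on the same days, at 40 mg/m3 in the first week and 80 mg/m3 afterwards, with air in week 3. The air group breathed air throughout. Each library came from 1 piece of lung, so airway and alveolar tissue were measured together, and the labels describe separate animals.

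A motile cilium is built on an axoneme, a ring of doublet microtubules around a central pair. Outer and inner dynein arms on the doublets drive the beat, radial spokes and the nexin-dynein regulatory complex coordinate it, tektins and other proteins line the doublets, and intraflagellar transport carries the parts to the tip. In the lung these cilia stand on the multiciliated cells of the airways and clear mucus, and Foxj1 with Rfx2 and Rfx3 switches on their genes. Intraflagellar transport is also used by the single primary cilium of many other cell types.

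Promoters of the members were looked up because Foxj1 and RFX factors act there. A RefSeq table for the rat assembly GRCr8, giving 250 bases before and 50 bases after the start, held an entry for 54 of the 65 distinct genes. Dnah3, Ift57, Ift74, Ift80, Rsph1, Rsph4a, Foxj1, Spag1, Spag11b, Spag16 and Tekt5 had none. A strict form of the RFX X-box was searched on both strands as GTTNCC, then 0 to 3 bases, then GGNAAC. It was found in 0 of 54 member promoters and in 0.929% of 27457 promoters in the table. X-boxes that vary at the fixed letters are missed by this search, so the 0 does not show that members lack an X-box. A single RFX arm spelled GTTGCC, which is 1 form of the first arm of that X-box and was searched on both strands, was found in 22 of 54 member promoters (40.7%) and in 13.1% of all promoters. The forkhead motif TGTTTAC, on both strands, was found in 3 of 54 member promoters (5.56%) and in 4.13% of all. The single arm was present in 35.5% of 31 axonemal members and in 36.4% of 11 intraflagellar transport members. The windows shown run 40 bases to either side of the arm, or to the start site where that is nearer, and come from the 6 members with the largest slopes on Foxj1 that hold a single arm, and from Ift88 and Tekt2, which differed between groups in opposite directions. Choosing the single arm for display followed the search that found no X-box of the strict form. Capitals mark the arm, written GTTGCC on the gene's strand and GGCAAC where it lies on the other strand.
Dnai2, chr10:100258927-100259012, plus strand, GRCr8: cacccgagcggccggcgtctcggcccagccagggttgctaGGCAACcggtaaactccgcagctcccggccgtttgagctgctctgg
Spag6, chr11:97677736-97677821, plus strand, GRCr8: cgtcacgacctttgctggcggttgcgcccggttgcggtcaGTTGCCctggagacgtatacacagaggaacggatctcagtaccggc
Cfap46, chr1:203912393-203912478, minus strand, GRCr8: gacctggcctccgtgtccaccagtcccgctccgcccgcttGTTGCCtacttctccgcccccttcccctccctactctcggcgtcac
Drc1, chr6:31779257-31779315, minus strand, GRCr8: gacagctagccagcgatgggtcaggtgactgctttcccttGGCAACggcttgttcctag
Tekt1, chr10:57479122-57479200, minus strand, GRCr8: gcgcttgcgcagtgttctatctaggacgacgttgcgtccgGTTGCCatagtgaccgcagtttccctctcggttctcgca
Dnah2, chr10:54766027-54766111, minus strand, GRCr8: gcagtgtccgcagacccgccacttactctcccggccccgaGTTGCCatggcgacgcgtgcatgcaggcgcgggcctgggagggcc
Ift88, chr15:35688913-35688986, plus strand, GRCr8: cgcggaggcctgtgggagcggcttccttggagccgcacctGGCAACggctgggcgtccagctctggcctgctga
Tekt2, chr5:143907725-143907793, minus strand, GRCr8: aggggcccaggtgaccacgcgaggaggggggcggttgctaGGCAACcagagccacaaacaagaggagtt
These letters lie 19 to 64 bases before the start in the 8 windows. Tekt2 held 2 matches of the arm in its promoter, and the others shown held 1 each. The Dnai2 and Tekt2 windows hold gttgct shortly before GGCAAC, and the Drc1 window holds tttccc there. The Dnah2 and Spag6 windows hold ggcgac and ggagac shortly after GTTGCC. Each of these is close to the strict X-box but outside it, so a marked arm need not stand alone. A match describes the sequence and does not show that a factor binds there.

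Depth was uneven. The library smoke 2 held 21629 counts, of which 57.4% were haemoglobin, and silica 4 held 280484 counts, while the other 22 libraries held 1084815 to 4687805. A gene at the floor of 3 counts would stand at 139 CPM in smoke 2 (CPM is a count scaled for library depth), so most members could not be measured there, and smoke levels below are those of the other 5 smoke libraries. Levels of single genes are CPM with the total scaled by the TMM method, and are not divided by gene length, so they compare libraries and not genes. The macrophage elastase Mmp12 stood at 3.20 CPM in silica 1, against 57.4 to 75.8 in the other silica libraries. It stood at 57.2 CPM in smoke 1, against 3.57 to 11.8 in smoke 3 to 6, so the Mmp12 level of each library lay close to the range of the other's group. Whether the labels of the libraries labelled silica 1 and smoke 1 were exchanged was not tested. The labels are kept, and every value of the silica or smoke group and every slope within groups carries this doubt. The count of called members in each comparison is repeated with this pair and smoke 2 left out. All 5 comparisons against air or between exposures draw on the same 4 groups, so they share libraries and are not independent.

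Far more members were lower than higher in lungs of the combined group set against air lungs, by modest amounts. Of 56 tested members, 14 were lower and 1 was higher in combined than in air lungs (edgeR quasi-likelihood test, Benjamini-Hochberg adjusted p under 0.05 over all 13322 genes). Over all tested genes 10.8% were called lower and 11.6% higher in that comparison, 22.4% in all. The log2 fold change was below 0 for 49 of the 56 members, against 51.4% of all tested genes. Its median was -0.30 over the members and -0.01 over all tested genes. In lung tissue a loss of ciliated cells, less ciliary RNA per ciliated cell and a shift in the other cells of the piece cannot be told apart. Without silica 1, smoke 1 and smoke 2 the counts were 20 lower and 1 higher, while calls over all genes went from 2987 to 3505. With DESeq2 in place of edgeR they were 6 lower and 1 higher.

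**Figure D1:**
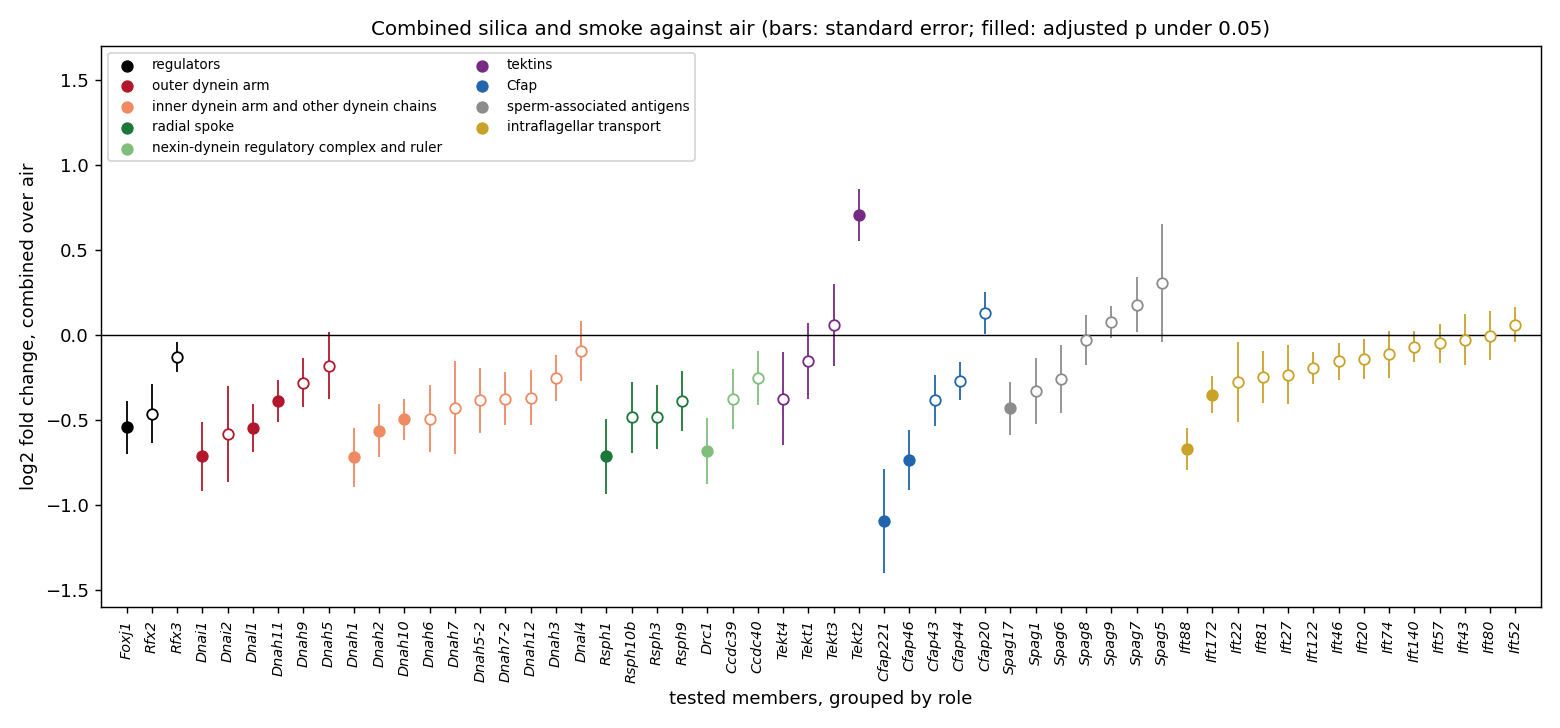
Log2 fold change of combined over air lungs for each of the 56 tested members, grouped by role, with bars of 1 standard error and a line at 0. Filled points passed the test, and most points lie below 0, with Tekt2 at 0.71 as the filled point above 0.

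Foxj1 (116557), the forkhead regulator of motile ciliogenesis, was among the members that fell. It stood at 20.5 to 27.0 CPM with a median of 24.8 in combined lungs, against 23.4 to 41.4 CPM with a median of 37.9 in air lungs. Air 2 lay within the combined range, and the other air libraries lay above every combined library. The log2 fold change was -0.54 ± 0.16 (SE; adjusted p = 0.0122). Rfx2 (301121), an RFX factor of ciliary genes, stood at 9.86 to 20.6 CPM with a median of 15.4 in combined lungs, against 19.5 to 22.9 CPM with a median of 20.4 in air lungs. Its difference from air was -0.46 ± 0.17 and did not pass (adjusted p = 0.0528), though it passed under 6 of 9 other settings, limma voom at -0.51 among them (adjusted p = 0.0233). Rfx3 (361746), its relative, had a log2 fold change of -0.13 ± 0.09 (adjusted p = 0.317). Mcidas and Gmnc, coregulators that start the multiciliated cell programme ahead of Foxj1, were too low to test, with 31 and 91 counts over all libraries.

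In the outer dynein arm, the row of motors that sets beat frequency, 3 of 6 members fell and the median log2 fold change of combined over air was -0.47. Dnal1 (685664), a light chain of this arm, stood at 12.2 to 24.4 CPM with a median of 18.3 in combined lungs, against 23.0 to 29.1 CPM with a median of 27.3 in air lungs. Only the highest combined library entered the air range. Its log2 fold change was -0.55 ± 0.14 (adjusted p = 0.00564). The intermediate chain Dnai1 (500442) stood at 5.11 to 12.2 CPM with a median of 9.76 in combined lungs, against 7.82 to 17.5 CPM with a median of 16.0 in air lungs. The ranges overlapped, and its log2 fold change was -0.71 ± 0.20 (adjusted p = 0.0112). Dnah11 (117253), a heavy chain, stood at 105.9 to 138.0 CPM with a median of 113.7 in combined lungs, against 118.2 to 185.0 CPM with a median of 154.0 in air lungs. Its change of -0.39 ± 0.13 passed (adjusted p = 0.0254) and was lost without air 3, air 6, combined 2, combined 3, combined 5 or combined 6. The other outer arm members Dnah9, Dnai2 and Dnah5 had log2 fold changes of -0.28, -0.58 and -0.18, none of which passed.

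The inner dynein arms, which shape the bend of the cilium, and the remaining dynein chains had 3 of 10 members lower, and all 10 had a log2 fold change below 0 with a median of -0.41. These are lines of the table rather than separate genes: Dnah7 and Dnah7-2 share an identifier, and Dnah5-2 shares that of Dnah5, counted in the outer arm. Dnah1 (171339), a single-headed inner arm heavy chain, stood at 42.9 to 68.1 CPM with a median of 56.0 in combined lungs, against 60.6 to 150.6 CPM with a median of 77.8 in air lungs. The ranges overlapped at their edges, and the log2 fold change was -0.72 ± 0.17 (adjusted p = 0.00290). Dnah2 and Dnah10 are the paired heavy chains of the double-headed inner arm, and both fell. Dnah10 (117252) stood at 69.0 to 100 CPM with a median of 81.6 in combined lungs, against 89.9 to 137.3 CPM with a median of 121.0 in air lungs, a log2 fold change of -0.50 ± 0.12 (adjusted p = 0.00384). Dnah2 (303242) stood at 28.5 to 52.6 CPM with a median of 39.4 in combined lungs, against 46.4 to 68.2 CPM with a median of 57.4 in air lungs, a log2 fold change of -0.56 ± 0.16 (adjusted p = 0.0102). Combined and air lungs overlapped for both genes, with the combined medians below the lowest air library. Dnah6 and Dnah12, other inner arm heavy chains, had log2 fold changes of -0.49 ± 0.20 and -0.37 ± 0.16 that did not pass (adjusted p = 0.0719 and 0.0985). The light chain Dnal4 lay at -0.09 ± 0.18 (adjusted p = 0.762).

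Radial spokes, the T-shaped links from the doublets to the central pair, had 1 of 4 members lower with a median log2 fold change of -0.48. Rsph1 (361818), a spoke head protein, stood at 4.88 to 10.3 CPM with a median of 6.47 in combined lungs, against 7.88 to 15.6 CPM with a median of 9.17 in air lungs. Its ranges overlapped, the log2 fold change was -0.71 ± 0.22 (adjusted p = 0.0203), and the call was lost without air 6, combined 2 or combined 3. In the RefSeq annotation Rsph1 overlaps Slc37a1, which had a log2 fold change of 0.09 ± 0.13 (adjusted p = 0.696). Rsph10b and Rsph3, other spoke proteins, had -0.48 ± 0.21 and -0.48 ± 0.19 and did not pass (adjusted p = 0.0951 and 0.0652). Drc1 (362712), a subunit of the nexin-dynein regulatory complex that links neighbouring doublets, stood at 7.75 to 15.0 CPM with a median of 11.4 in combined lungs, against 11.6 to 22.9 CPM with a median of 19.4 in air lungs. It overlapped at the low air libraries and had a log2 fold change of -0.68 ± 0.19 (adjusted p = 0.0113). Ccdc39 and Ccdc40, the ruler proteins that set the spacing of arms and spokes, had -0.38 ± 0.18 and -0.25 ± 0.16 (adjusted p = 0.125 and 0.273).

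Among the Cfap members 2 of 5 fell, and the median log2 fold change was -0.38. Cfap46 (499282), a central pair projection protein first known from Chlamydomonas, stood at 24.8 to 46.0 CPM with a median of 31.8 in combined lungs, against 40.0 to 62.3 CPM with a median of 56.2 in air lungs. A single combined library reached the air range, and the log2 fold change was -0.73 ± 0.18 (adjusted p = 0.00306). Cfap221 (313149), also of the central pair, stood at 0.517 to 4.02 CPM with a median of 3.73 in combined lungs, against 3.91 to 10.2 CPM with a median of 6.82 in air lungs. It was the member with the largest change, at -1.09 ± 0.30 (adjusted p = 0.00990), at a level of few reads, and its ranges overlapped slightly. Cfap44 and Cfap43, which tether the inner arm, had -0.27 ± 0.11 and -0.38 ± 0.15 and did not pass (adjusted p = 0.0743 and 0.0603). The sperm-associated antigens share a name rather than a structure, and 1 of 7 fell with a median of -0.03. That was the central pair protein Spag17 (690746), at 28.4 to 46.9 CPM with a median of 39.2 in combined lungs, against 40.0 to 61.9 CPM with a median of 51.7 in air lungs. Its change of -0.43 ± 0.16 lay close to the threshold (adjusted p = 0.0479) and was lost without 16 of the 24 single libraries, holding only without air 2, air 5, silica 1, silica 3, smoke 2, smoke 4, combined 1 or combined 4. Spag9, a kinase scaffold with wide expression, had a log2 fold change of 0.08 ± 0.10 (adjusted p = 0.624).

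Tekt2 (298532) was the 1 member that rose. It encodes tektin 2, a filament protein inside the doublet wall, and stood at 17.8 to 25.9 CPM with a median of 21.4 in combined lungs, against 10.5 to 18.3 CPM with a median of 12.6 in air lungs. Only the lowest combined library lay below the highest air library. The log2 fold change was 0.71 ± 0.15 (adjusted p = 0.00128), and the call held whichever of the 24 libraries was left out. Tekt1, Tekt3 and Tekt4 lie in the same filament family and none of them passed, with Tekt1 at -0.15 ± 0.22 (adjusted p = 0.679). The nearest gene to Tekt2 in the RefSeq annotation, Adprs (Adprhl2 in the table), had a log2 fold change of 0.12 ± 0.13 (adjusted p = 0.572). Whether reads were counted by strand is a point not given in the sources used here, and without it reads of overlapping genes cannot be told apart.

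**Figure D2:**
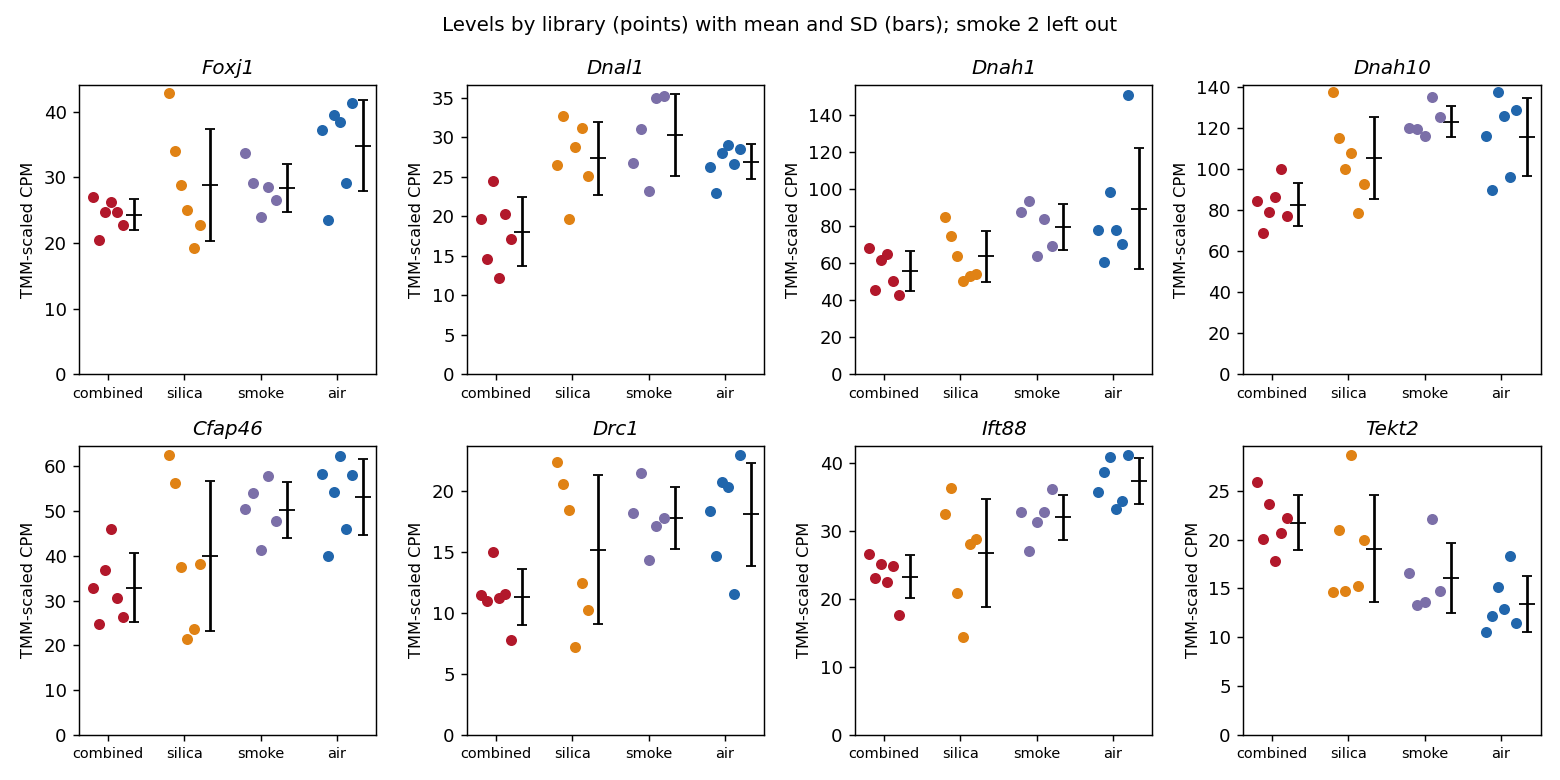
TMM-scaled CPM of Foxj1, Dnal1, Dnah1, Dnah10, Cfap46, Drc1, Ift88 and Tekt2, with 1 point per library, the mean and bars of 1 SD, in the combined, silica, smoke and air groups, smoke 2 left out. Combined lungs are the lowest group by mean in every panel but Tekt2, where they are the highest, and Ift88 is the panel whose combined and air points are apart.

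Intraflagellar transport members had a smaller median change than the axonemal groups other than the tektins. Of 14 members 13 had a log2 fold change below 0, with a median of -0.15, and 2 fell. Ift88 (305918), a core subunit of transport complex B, stood at 17.6 to 26.6 CPM with a median of 23.9 in combined lungs, against 33.2 to 41.2 CPM with a median of 37.2 in air lungs. All 6 combined libraries lay below all 6 air libraries, and the log2 fold change was -0.67 ± 0.12 (adjusted p = 2.77e-04), the smallest p of any member. Ift172 (116475), another complex B subunit, stood at 41.8 to 51.6 CPM with a median of 46.4 in combined lungs, against 50.3 to 71.5 CPM with a median of 57.4 in air lungs. The groups overlapped slightly, and the log2 fold change was -0.35 ± 0.11 (adjusted p = 0.0184). That call was lost without air 6 or combined 2, and Krtcap3, which overlaps Ift172, stood at 0.55 ± 0.21 (adjusted p = 0.0570). Ift122, of transport complex A, was the other member whose combined libraries all lay below the air libraries, at 45.0 to 50.7 CPM in combined lungs, against 51.3 to 63.5 CPM in air lungs. Such separation downward was seen in 2 of 56 members and in 4.93% of all tested genes, so it was no more common among the members. Upward separation was seen in 0 of 56 members and in 6.37% of all tested genes. Ift140, Ift20 and Ift46 had log2 fold changes of -0.07 ± 0.09, -0.14 ± 0.12 and -0.16 ± 0.11, and none passed.

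Summed levels were also compared between libraries. The 32 tested axonemal members, meaning the dynein, spoke, regulatory complex, tektin and Cfap members, summed to 1139 to 1606 CPM with a median of 1482 in combined lungs. The sums were 1376 to 2047 CPM with a median of 1484 in silica lungs, 1547 to 2041 CPM with a median of 1923 in smoke lungs, and 1405 to 2170 CPM with a median of 1762 in air lungs. These ranges overlapped in every pair of groups. The 14 transport members summed to 423 to 464.8 CPM in combined lungs, 387.5 to 473.7 CPM in silica lungs, 478.6 to 531.6 CPM in smoke lungs and 477.5 to 545.2 CPM in air lungs. All combined and all silica libraries lay below all air and all smoke libraries for this sum. The lowest silica sum was that of silica 4, the silica library of lowest depth.

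**Figure D3:**
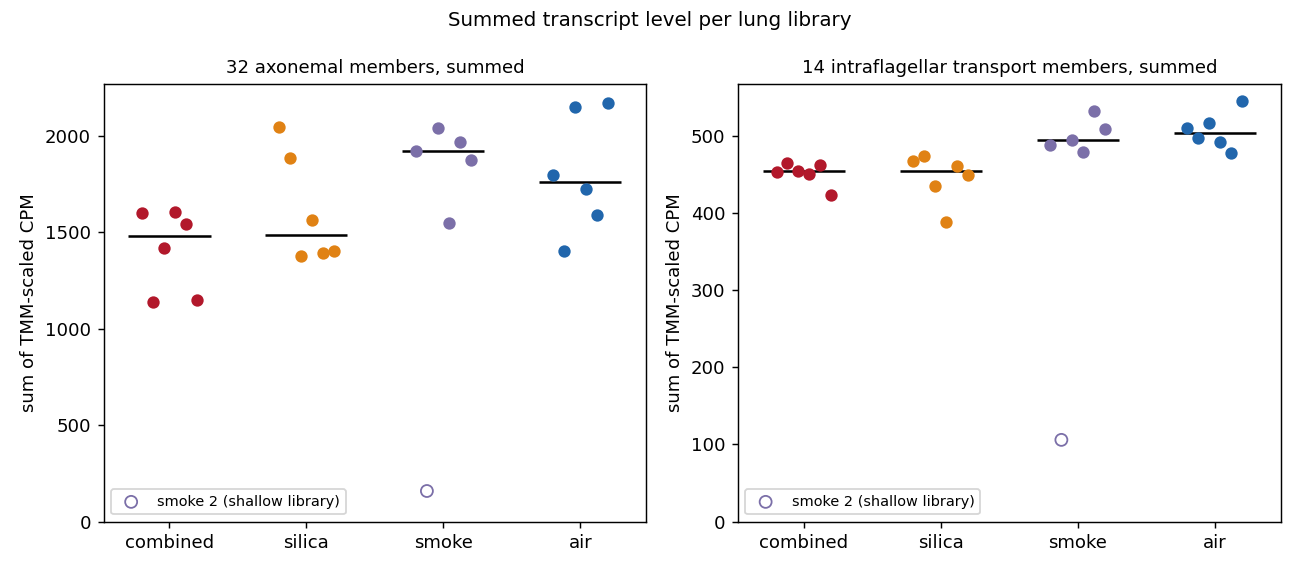
Summed TMM-scaled CPM per library of the 32 tested axonemal members (left) and the 14 intraflagellar transport members (right) in the combined, silica, smoke and air groups, with group medians as lines and smoke 2 as an open circle. The axonemal sums of the groups overlap, while every combined and silica transport sum lies below 477.5 CPM, the lowest air value.

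Against smoke alone, 13 of 56 members were lower and 1 was higher in combined lungs, where 5.57% of all tested genes were called lower and 7.34% higher. The median log2 fold change was -0.33 over the members and 0.00 over all tested genes. Dnal1 stood at 12.2 to 24.4 CPM with a median of 18.3 in combined lungs, against 26.8, 31.1, 23.2, 35.0 and 35.2 CPM in the 5 smoke libraries. The highest combined library lay above 1 smoke library, and the log2 fold change was -0.68 ± 0.15 (adjusted p = 0.00378). Dnah10 stood at 69.0 to 100 CPM in combined lungs, against 119.7, 119.5, 115.8, 134.9 and 125.3 CPM in the smoke libraries. The groups did not overlap, and the log2 fold change was -0.56 ± 0.13 (adjusted p = 0.00506). Rfx2 fell by this comparison, at 9.86 to 20.6 CPM in combined lungs, against 19.2, 18.1, 23.97, 31.4 and 26.5 CPM in smoke lungs, a log2 fold change of -0.61 ± 0.18 (adjusted p = 0.0255). Foxj1 did not pass here, at -0.23 ± 0.17 (adjusted p = 0.401).

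The comparisons against smoke and against air share the combined libraries, so their calls are not independent. Ccdc40 at -0.55 ± 0.17 (adjusted p = 0.0275) and Dnah9 at -0.46 ± 0.15 (adjusted p = 0.0450) passed against smoke and not against air, and this contrast between comparisons was not tested. Tekt2 stood 0.49 ± 0.16 higher than in smoke lungs (adjusted p = 0.0456). Dnal1 and Dnah10 kept their calls whichever library was left out. The other 12 calls each depended on at least 1 library, and the count of lower members was 2 without combined 2, 4 without combined 6, 5 without smoke 3, smoke 5 or smoke 6, 7 without combined 3 and 8 without combined 5. With DESeq2 it was 3. Without silica 1, smoke 1 and smoke 2 the counts were 16 lower and 1 higher, the higher member being Tekt2 at 0.49 and at the threshold (adjusted p = 0.0499976).

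Silica alone and smoke alone changed no member past the threshold. In silica against air lungs 0 of 56 members passed, where 3.17% of all tested genes did (2.15% higher and 1.01% lower), and 8 members were lower and 1 higher at an unadjusted p under 0.05, where 8.91% of all tested genes were lower and 9.31% higher (18.2% in all). That total was no more common among the members. The log2 fold change was below 0 for 47 of 56 members with a median of -0.17, against a median of 0.00 over all genes. Ift88 stood at 14.3 to 36.2 CPM with a median of 28.4 in silica lungs, against 33.2 to 41.2 CPM with a median of 37.2 in air lungs, a difference of -0.38 ± 0.13 on the log2 scale (adjusted p = 0.0883). Only its highest silica library reached the air range. Its lowest level was in silica 4, the silica library of lowest depth, where 1 count stands at 3.565 CPM. The next lowest was 20.9 CPM in silica 3. Without silica 1, whose Mmp12 level went against its label, 3 members were lower, namely Dnah1 at -0.59, Ift172 at -0.39 and Ift88 at -0.42 (adjusted p = 0.0401, 0.0317 and 0.0488 with edgeR). Without silica 1, smoke 1 and smoke 2, Dnah1, Foxj1, Ift172, Ift88 and Rsph9 were lower and Spag9 was higher. Over all genes, 1183 were called without silica 1 and 1614 without silica 1, smoke 1 and smoke 2, against 422 with all libraries. Calls thus rose over all genes and not only among the members. With DESeq2 and limma voom the count of called members over all silica libraries was also 0.

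In smoke against air lungs 0 of 56 members passed, where 0.15% of all tested genes did (0.0976% higher and 0.0525% lower), and 0 members had an unadjusted p under 0.05. The log2 fold change was below 0 for 28 members and above 0 for 28, with a median of 0.00. Foxj1 had a difference of -0.31 ± 0.16 (adjusted p = 0.6253), at 23.9 to 33.7 CPM in the 5 smoke libraries, against 23.4 to 41.4 CPM in air lungs. DESeq2 and limma voom also called 0 members, as did edgeR without silica 1, smoke 1 and smoke 2.

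Adding smoke to silica was also without a called member. In combined against silica lungs 0 of 56 members passed, where 0.248% of all tested genes did (0.12% higher and 0.128% lower), and 8 were lower and 1 higher at an unadjusted p under 0.05, where 6.07% of all tested genes were lower and 6.79% higher (12.9% in all). In this comparison 40 of 56 members had a log2 fold change below 0, against 50.4% of all tested genes, and the median over the members was -0.13. Dnal1 came closest to passing, at 12.2 to 24.4 CPM with a median of 18.3 in combined lungs, against 19.7 to 32.7 CPM with a median of 27.6 in silica lungs. Its log2 difference of -0.57 ± 0.15 had an adjusted p of 0.100, and it passed without silica 3. The interaction, which asks whether the log2 effect of both exposures differs from the sum of their separate effects, called 0 members and 0 of 13322 genes. At an unadjusted p under 0.05 it had 3 members below and 2 above 0, where 3.43% of all tested genes lay below and 3.9% above (7.33% in all), so the members were near that share. The members below 0 were Dnal1 at -0.70 ± 0.20 (adjusted p = 0.393 with edgeR), Ccdc40 at -0.56 ± 0.23 and Dnah10 at -0.41 ± 0.18. Those above 0 included Ift27 at 0.60 ± 0.27. DESeq2 called 1 gene and limma voom 0 for the interaction, and both called 0 members there and in combined against silica. Without silica 1, smoke 1 and smoke 2 edgeR also called 0 members in both. No member was thus shown to depart from additive log2 effects, and additivity was not shown either.

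Within the groups, libraries with more Foxj1 held more of the axonemal members. A slope was fitted to every gene, as the change in its log2 level per log2 unit of Foxj1 after each group's mean was removed, in the 23 libraries where Foxj1 reached 3 counts. Foxj1 ran from 0.53 below its group mean in air 2 to 0.61 above it in silica 1, on the log2 scale, and that last value rests on a label in doubt. The slope was positive and passed for 12 of 55 members and was negative for none, where 0.309% of 13571 genes passed, 0.273% with a positive and 0.0368% with a negative slope (edgeR adjusted p under 0.05). The median slope was 0.69 over the 32 axonemal members, 0.14 over the 14 transport members and 0.00 over all tested genes. None of the transport members passed, with slopes from -0.16 for Ift46 to 0.34 for Ift172.

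Among the members, the largest slopes belonged to structural parts of the beating machinery. Dnai2 (360654), an outer arm intermediate chain, had 1.54 ± 0.32 (SE; adjusted p = 0.0234), and Dnah6 (117250) had 1.08 ± 0.19 (adjusted p = 0.00640). Spag6 (360747), a central pair protein, had 1.05 ± 0.21 (adjusted p = 0.0216). By size of slope over all genes, Dnai2 ranked 40, Dnah6 124 and Spag6 135. Cfap46 had 1.02 ± 0.15 and Dnah10 had 0.66 ± 0.10, both with an adjusted p of 0.00196. Dnah1, Drc1, Dnah2, Dnah7-2, Dnah12, Dnah9 and Dnah3 also passed, with slopes of 0.96, 0.94, 0.88, 0.83, 0.75, 0.72 and 0.64. The members with a called slope and a call in combined against air lungs were Cfap46, Dnah1, Dnah10, Dnah2 and Drc1. Of these, Cfap46, Drc1 and Dnah2, printed above, and Dnah10 hold that RFX arm in the promoter, as do 22 of 54 member promoters. Transport members hold it in 36.4% of 11 promoters and had no called slope. Whether the arm goes with the slope was not tested.

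Some members that differed between groups hardly followed Foxj1. Tekt2 had a slope of -0.03 ± 0.22, Dnal1 0.13 ± 0.19 and Ift88 0.21 ± 0.16, with adjusted p of 0.999, 0.864 and 0.709. The lowest slopes were those of Spag7 at -0.43 ± 0.21, Ift46 at -0.16 ± 0.15, Spag9 at -0.14 ± 0.07, Dnal4 at -0.12 ± 0.25 and Ift20 at -0.09 ± 0.16, none of which passed. The relation leaned on the libraries at the ends of the Foxj1 range. Without silica 1, smoke 1 and smoke 2 the count of called members was 6. Without air 2 it was 6, without silica 1 it was 5, and without both it was 2, namely Cfap46 at 1.12 (adjusted p = 0.0366) and Dnah2 at 1.16 (adjusted p = 0.0130). In that last fit Dnah6 stood at 1.13, Dnai2 at 1.90 and Dnah10 at 0.64, all with adjusted p of 0.155.

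**Figure D4:**
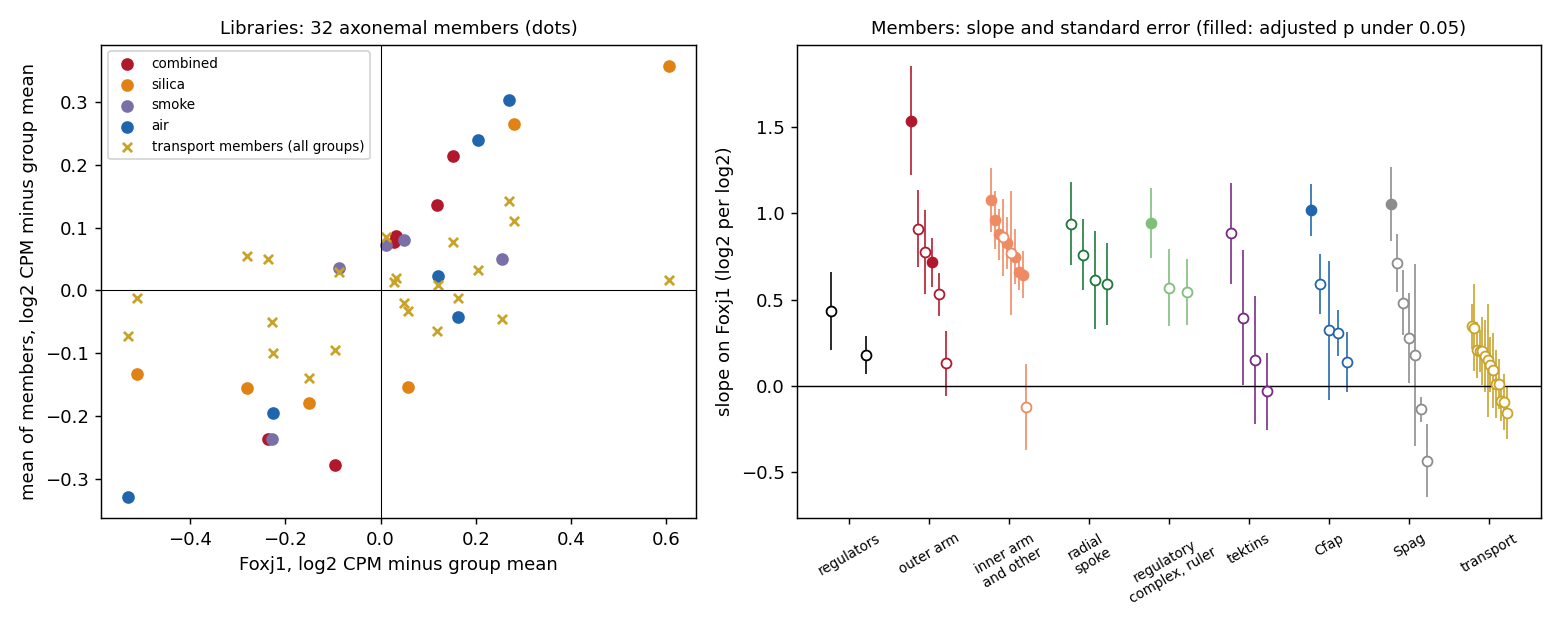
Left, the mean log2 deviation of the axonemal members (dots, coloured by group) and of the transport members (crosses) from the group mean in each of 23 libraries, against the Foxj1 deviation, with air 2 at -0.53 and silica 1 at 0.61 at the ends. Right, the slope on Foxj1 with 1 standard error for each of 55 members by role, where the axonemal median is 0.69 and the transport median 0.14.

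Slopes on Foxj1 of marker genes were fitted in the same way. Ciliated cell markers that are not members had a median slope of 0.72, with 1 of 15 passing. Genes of the pathway outside the naming rule, listed below, had 0.45, with 1 of 54 passing. Airway secretory markers had a median slope of 1.13, with 2 of 9 passing. Smooth muscle markers had a median of 0.77 and cardiac muscle markers 1.45, each with 0 of 5 passing, while alveolar type 2 markers had a median of -0.36 with 0 of 8 passing. Alveolar type 1 markers had 0.03, proliferation markers 0.23, neutrophil markers -0.11 and erythroid markers -0.18, with 0 of 6, 6, 5 and 4 passing. Macrophage markers had -0.46, with 1 of 5 passing, below 0. The 1 tested airway basal marker had 0.66 and did not pass. The part that airway content of the sampled piece plays in the slopes was not tested.

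Genes of the pathway outside the naming rule were called lower about as often as genes in general. Of 78 such genes listed, 62 were found and 54 tested, and 6 were lower and 1 higher in combined than in air lungs, where 10.8% of all tested genes were lower and 11.6% higher. The log2 fold change was below 0 for 47 of the 54, against 51.4% of all tested genes, with a median of -0.30. The lower genes were Armc4 at -0.78 ± 0.27 and Ccdc114 at -0.57 ± 0.20, which dock the outer arm, Hydin of the central pair at -0.41 ± 0.14, the doublet protein Efhc2 at -0.60 ± 0.20, Wdr19 of transport complex A at -0.46 ± 0.13, and Wdr60 of the retrograde transport dynein at -0.36 ± 0.13 (adjusted p = 0.0341, 0.0417, 0.0384, 0.0305, 0.0112 and 0.0444). The higher gene was Ttc21b, another complex A subunit, at 0.54 ± 0.12 (adjusted p = 0.00107), with medians of 62.9 CPM in combined and 42.8 CPM in air lungs. The genes of this list with the highest CPM that did not pass were Tubb4b, a ciliary tubulin, at -0.09 ± 0.09 and Dync2h1, the transport dynein heavy chain, at -0.18 ± 0.12 (adjusted p = 0.486 and 0.269). Against smoke, 3 were lower in combined lungs, near the 5.57% of all tested genes, namely Efhc2, Wdr60 and the kinase Stk36 at -0.46 ± 0.13 (adjusted p = 0.0194).

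Of 14 tested markers of ciliated cells that are not members, 3 fell in combined against air lungs and 11 did not pass, where 10.8% of all tested genes were lower. The median log2 fold change was -0.42, and 12 of 14 lay below 0. Those that fell were Tppp3 at -0.38 ± 0.13, Sec14l3 at -0.44 ± 0.13 and Cdhr4 at -0.59 ± 0.17 (adjusted p = 0.0337, 0.0143 and 0.0103). Summed over 15 markers, with each library scaled to its own total, they stood at 1054 to 1190 CPM in combined lungs, 1064 to 1574 CPM in silica lungs, 1349 to 1543 CPM in smoke lungs and 1235 to 1777 CPM in air lungs. No combined library reached the lowest air library, and no marker was at 0 throughout a group.

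Markers of other cells moved in the same comparison. Airway secretory cells share the airway lining with ciliated cells, and their markers did not fall as a group, with 2 of 9 higher and 1 lower in combined than in air lungs. Across these markers the log2 fold change was below 0 for 5 and above 0 for 4, with a median of -0.02 and a lowest value of -0.87. Bpifb1 rose by 3.17 ± 0.60 and Pigr by 1.00 ± 0.21 on the log2 scale, and Scgb1a1, the main club cell product, had -0.02 ± 0.24 (adjusted p = 0.973). The secretory sum was 2837 to 4554 CPM in combined and 2455 to 3569 CPM in air lungs, with 3 of 12 markers at 0 in every combined library (Muc5ac, Tff2 and Reg3g) and 2 at 0 in every air library (Tff2 and Reg3g). Neutrophil markers were higher in 5 of 5, summing to 368.8 to 822.3 CPM in combined and 79.2 to 141.2 CPM in air lungs. Macrophage markers were higher in 3 of 5, at 768.6 to 866.8 CPM in combined and 518.6 to 779.9 CPM in air lungs, with Marco at 0 in every air library. Alveolar type 2 markers were higher in 4 of 8, at 26040 to 29730 CPM in combined and 14770 to 23000 CPM in air lungs. Alveolar type 1 markers were lower in 3 of 6, at 2912 to 3048 CPM in combined and 3548 to 4067 CPM in air lungs, and smooth muscle markers in 2 of 5, at 301.7 to 405.6 CPM in combined and 381.4 to 1215 CPM in air lungs. Cardiac muscle, erythroid and airway basal markers had 0 of 5, 0 of 4 and 0 of 1 passing, and proliferation markers 1 of 6, higher. The part of these shifts in the ciliary values was not tested.

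Of the 67 members, 11 were too low for any test. Spag11b and Spag4 had 0 counts in all libraries, and Dnah8, Rsph4a and Rsph6a had 23, 7 and 14 counts in total. Dnah17, Spag16, Spag6l and Tekt5 had 98 to 183 counts over all libraries, and these genes carry no statement here.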

How the data were processed

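Lung RNA of 24 rats was sequenced after depletion of ribosomal RNA, from strand-specific libraries, per the labels' protocols. The authors deposited raw whole-number counts per gene. The submitters' processing notes name HISAT2 2.1.0, HTSeq 0.11.2, Trimmomatic 0.35, SAMtools 1.8, bcl2fastq 2.19 and Cufflinks. Genome build, annotation and strand setting of the counts: not given in the sources used here. Of 30069 lines, 26 exact repeats were removed.

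The analysis used edgeR 4.0.16 in R 4.3.3: filterByExpr with a minimum count of 10, TMM scaling, and a quasi-likelihood fit of 4 group means to 24 libraries (20 residual degrees of freedom), with two-sided tests adjusted over all genes. SE is the absolute log2 fold change over the square root of F. The Foxj1 slope used log2 CPM with a prior count of 2, centred by group. Alternatives were RLE scaling, no filter, DESeq2 1.42.0, limma voom 3.58.1, the 12 compared libraries only and left-out libraries. Scripts were tested on simulated data.

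Replicates were numbered in accession order. Chi-square per degree of freedom between libraries of a group was at least 1.73, so none agreed within sampling noise. Members and lists were chosen with earlier results of these data known. Named members are those listed by name, called against air or smoke, those of highest CPM in each role, and those with the largest change or the extreme slopes. RefSeq (GRCr8) held 66 of 67 members and was used for neighbours and promoters.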

Additional observations from a re-analysis of the deposited data

Results flagged for a closer look

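Each group of each named member and summed level was checked for 1 library standing apart, 180 groups in all, with smoke 2 left out. Chance alone would mark about 1 group in 20, and 7 were marked. Rfx3 stood at 73.0 CPM in smoke 4, where the nearest smoke library had 83.6. Cfap43 stood at 66.0 CPM in the same library, where the nearest had 92.2. Ccdc40 stood at 37.9 CPM in silica 1, where the nearest silica library had 25.1. Cfap221 stood at 0.517 CPM in combined 6, where the nearest combined library had 3.31, and its call against air held without that library. The intraflagellar transport sum was 423 CPM in combined 6, where the nearest combined library had 450.6. Ift20 stood at 38.9 CPM in air 6, where the nearest air library had 31.6. Dnal4 had 0 CPM in silica 4, the silica library of lowest depth, where the nearest had 10.96.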

How the results depend on the processing

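In combined against air lungs, Cfap46, Dnah1, Dnah10, Dnah2, Dnal1, Ift88 and Tekt2 were called under all 24 single left-out libraries and all 9 other settings. Foxj1, Cfap221, Dnai1 and Drc1 lost the call with DESeq2 alone, and Ift172 with DESeq2 or left-out libraries. Dnah11 lost it with DESeq2, limma voom or left-out libraries, and Rsph1 with DESeq2, left-out libraries or air 6, smoke 2 and silica 4 left out together. Spag17 lost it with DESeq2, limma voom, left-out libraries, both sets holding smoke 2 and silica 4, or lines of 1 identifier summed, and held it under 4 of 9 other settings. Left-out libraries gave 10 to 17 lower members against air, 2 to 18 lower and 0 to 1 higher against smoke, 0 to 3 lower in silica against air, 0 to 1 lower in combined against silica, and 5 to 16 positive slopes. Gene counts ran from 124 to 1183 in silica against air (422 with all libraries), 6 to 42 in smoke against air (20), 16 to 113 in combined against silica (33), 905 to 2271 in combined against smoke (1720) and 15 to 137 for the slope (42).

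With DESeq2 silica against air had 177 genes, combined against air 1665 genes and 6 lower members, combined against smoke 834 genes with 3 lower and 0 higher members, and the interaction 1 gene. With limma voom silica against air had 104 genes and smoke against air 7. Without the filter 0 members were higher in combined against smoke. With the 12 compared libraries only, silica against air had 91 genes, smoke against air 5, combined against silica 100, and combined against smoke 23 lower members. Without silica 1, smoke 1 and smoke 2, silica against air had 1614 genes with 1 member higher and 5 lower, combined against smoke 2751 genes, and the slope 23 genes and 6 members. Without air 6, smoke 2 and silica 4, silica against air had 255 genes, smoke against air 51, combined against silica 196, and combined against smoke 2672 genes and 21 lower members. Chosen after seeing the data, leaving out smoke 2 and silica 4 gave 12 genes in smoke against air and 58 in combined against silica, leaving out silica 1 and air 2 gave 12 genes and 2 members for the slope, and summing the lines of 1 identifier changed no count by over 1.5 times. The causes were not tested.

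Values that changed sign had not passed. Tekt1 in combined against air was 0.035 without air 6 and 0.037 without air 6, smoke 2 and silica 4, and ran from -0.25 to 0.035 over single left-out libraries. The slope of Tekt2 was 0.074 without air 5, 0.033 without air 6, 0.017 without silica 6, 0.11 without silica 1, smoke 1 and smoke 2, 0.054 without air 6, smoke 2 and silica 4 and 0.082 without silica 1 and air 2, and ran from -0.18 to 0.12 over left-out libraries. Over the same, slopes ran from -0.032 to 0.76 for Cfap221, -0.21 to 0.0034 for Ift140 and -0.21 to 0.039 for Dnal4. Without silica 1 and air 2, Cfap221 had -0.62 and Dnal4 0.20, and Ift46 had 0.085 without silica 1, smoke 1 and smoke 2. No paired analysis was possible because the labels give the groups no shared replicate numbers.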
